A study of Homo sapiens with 6 samples.

Results

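The BCL2 family sets the threshold at which a cell commits to mitochondrial apoptosis. Pro-survival members such as BCL2, BCL-xL (gene BCL2L1) and MCL1 hold the effectors BAX and BAK (gene BAK1) in check, and the effectors, once released, open pores in the outer mitochondrial membrane. BH3-only proteins, named for the short BH3 helix that fits into the groove of the pro-survival proteins, are the stress-induced triggers of the pathway, and in breast cancer cells the transcription of BH3-only genes and the short-lived MCL1 protein are well known points of control. The genes described here were 10 of the 17721 in the expression table, taken by gene symbol: the BH3-only genes BMF, BBC3, PMAIP1, BCL2L11 and BID, the pro-survival genes BCL2, BCL2L1 and MCL1, and the effector genes BAX and BAK1. The family was chosen from results of the same comparison it is described in, because BMF had one of the larger increases there. The difference of BMF is therefore given as a description without a test, and the other 9 members, which were taken by name and not by a threshold, are given with their values from the fit over all genes, from which nothing is read about the family as a whole. All 10 members passed the low-count filter, and none lacked a row in the table. Other genes of these classes, among them BAD, BIK, BOK, BCL2A1 and BCL2L2, were not members and are counted below as other BCL2 relatives. Class names below refer to the members unless another gene is named.

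The 6 libraries came from MDA-MB-231BR, a brain-tropic derivative of the triple-negative human breast cancer line MDA-MB-231 grown as a monoculture. The control group was 3 libraries of cells stably carrying control shRNA. The ACSS2 group was 3 libraries of cells stably carrying shRNA against ACSS2, the enzyme that makes acetyl-CoA from acetate in the cytosol and nucleus. Both groups went through lentiviral transduction with virus made in HEK-293T cells and antibiotic selection, so both carry an integrated vector, and the labels call the libraries biological replicates without giving the number of hairpin sequences, of independent transductions, or the time between selection and harvest. The labels also give a batch tag, Rep1 to Rep3, in both groups, and libraries with the same number are treated below as a pair. In the titles the number directly follows the word shRNA, so whether it also names a hairpin cannot be told. If the libraries of a group came from 1 transduced population, the p-values measure the spread between these libraries only.

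Library totals were between 15048275 and 18608124 counts. ACSS2, the targeted gene, stood at 43.69, 44.47 and 94.52 TPM (transcript abundance scaled by length and library size) in control replicates 1 to 3 and at 7.32, 33.27 and 53 TPM in ACSS2 shRNA replicates 1 to 3. Each pair had less ACSS2 mRNA under ACSS2 shRNA, but the groups overlapped, with ACSS2 shRNA replicate 3 above control replicates 1 and 2. The size of the reduction ran from a log2 difference of -2.76 in pair 1 to -0.49 in pair 2. The log2 fold change of ACSS2 was -1.05 (SE 0.64, adjusted p = 0.504) without the pairing and -1.31 (SE 0.30, adjusted p = 0.00757) with it. Without pair 1 the paired value was -0.70, and with DESeq2 the paired call was lost (log2 fold change -1.38, adjusted p = 0.124). Of the markers of MDA-MB-231 type cells, VIM was at 5449 TPM or more in every library, whereas SPARC was at 2.20 TPM or less. In the paired fit CD44 and CAV1 fell, by 0.57 (adjusted p = 0.00598) and 0.35 (adjusted p = 0.0348), and SPARC rose by 1.24 (adjusted p = 0.0319), while the other 3 markers did not pass. CDH1, which these cells are known to lack, was listed at 0 in 5 of the 6 libraries. Other markers of luminal breast cells were present, led by KRT8 and KRT18, and the 9 summed to 581 to 1130 TPM in control and 646 to 1080 TPM in ACSS2 shRNA libraries. Of these, GATA3 fell in the paired fit, by 0.95 (adjusted p = 0.0102). The defining leukocyte marker PTPRC was at 0.18 TPM or less, and the endothelial marker VWF at 0.20 TPM or less. CD14, the 1 leukocyte marker with enough counts, and CDH5 and KDR, 2 of the 4 endothelial markers, rose in the paired fit. The summed level of the endothelial markers was 3.89 to 9.15 TPM in control and 7.93 to 13.8 TPM in ACSS2 shRNA libraries, and that of the 4 listed leukocyte markers was 1.37 to 4.12 TPM in control and 3.62 to 7.23 TPM in ACSS2 shRNA libraries. Their part in the results on the family was not tested. In bulk libraries of this kind, a change in the share of cells that express a gene and a change in RNA per cell cannot be told apart.

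The members of the family spanned a wide range of mRNA abundance. In the control libraries BCL2L1 was the most abundant, at 431 ± 152 TPM (SD, n = 3), and above 98.3% of the genes in the table. MCL1 followed at 153 ± 12.4 TPM and BAX at 135 ± 7.65 TPM, and the ranges of those 2 genes over the control libraries overlapped. PMAIP1 (45.7 ± 15.2 TPM), BID (45.5 ± 5.82 TPM) and BAK1 (34.2 ± 7.51 TPM) formed the next tier, each overlapping its neighbour. BBC3 stood at 11.0 ± 3.35 TPM and BCL2L11 at 4.51 ± 0.466 TPM, each separate from its neighbours. BCL2, the founding member of the family, was at 3.00 ± 0.537 TPM, and BMF was last at 1.88 ± 0.773 TPM, with overlapping ranges. In the ACSS2 shRNA libraries the top 3 were the same and in the same order, BID stood before PMAIP1, and BMF moved from the lowest to the 8th place, ahead of BCL2L11 and BCL2. TPM is scaled by transcript length and so can be compared between genes, while the fold changes below come from counts.

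**Figure D1:**
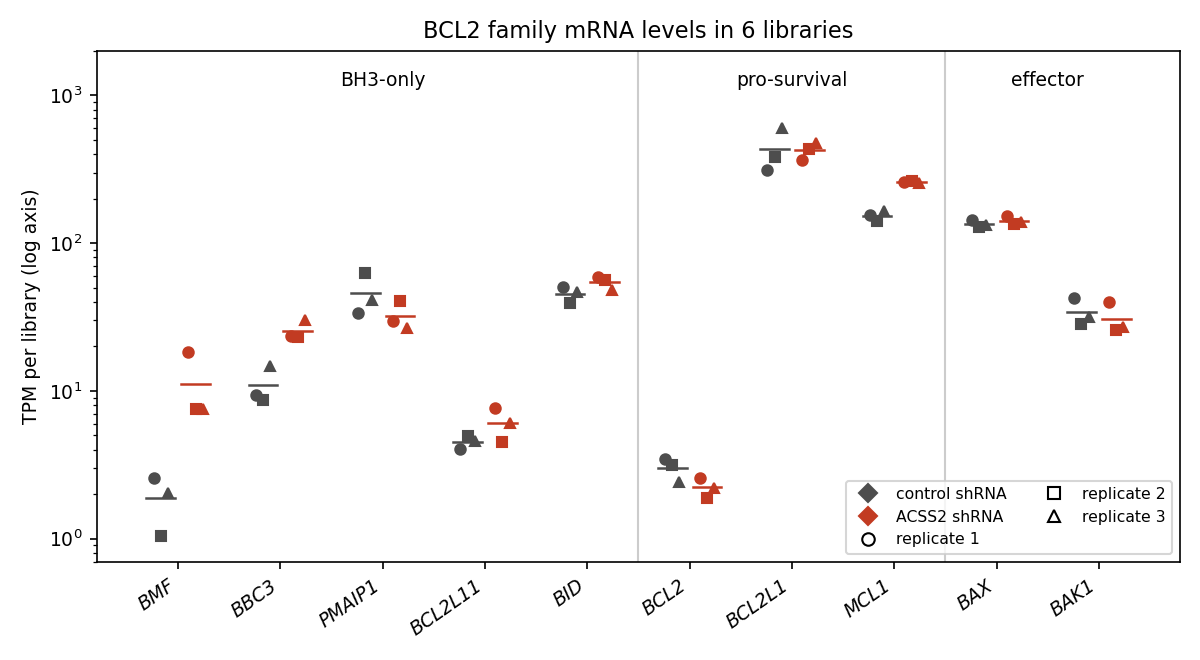
TPM of each of the 10 members in the 6 libraries on a log axis. Colours mark the group, symbols the replicate number and horizontal lines the group mean of 3 libraries. For BMF, BBC3 and MCL1 all 3 ACSS2 shRNA libraries lie above all 3 control libraries, and for the other 7 members the groups overlap.

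The 3 BH3-only members with the larger differences are shown with the sequence at their start, since their regulation is largely transcriptional. BMF lies on chromosome 15 (15q15.1), at 40087072 to 40108992 on the minus strand of GRCh38. BBC3 lies on chromosome 19 (19q13.32), at 47220789 to 47232998 on the minus strand. PMAIP1 lies on chromosome 18 (18q21.32), at 59899960 to 59904306 on the plus strand. The windows run from 250 bases before to 50 bases after a transcript start annotated by RefSeq on GRCh38.p14, and were read for the first listed start of BMF (chr15:40108830-40109129, minus strand), for BBC3 (chr19:47232618-47232917, minus strand) and for PMAIP1 (chr18:59899746-59900045, plus strand). They are written 5′ to 3′ on the gene's strand, and capitals mark matches on either strand to the 7 motifs searched.
BMF: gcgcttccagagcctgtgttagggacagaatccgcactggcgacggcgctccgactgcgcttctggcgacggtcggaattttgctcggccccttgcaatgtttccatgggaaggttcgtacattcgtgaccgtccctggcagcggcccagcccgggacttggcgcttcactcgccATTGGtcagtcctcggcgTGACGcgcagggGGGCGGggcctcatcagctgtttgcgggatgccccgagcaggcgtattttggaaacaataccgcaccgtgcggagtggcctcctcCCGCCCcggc
BBC3: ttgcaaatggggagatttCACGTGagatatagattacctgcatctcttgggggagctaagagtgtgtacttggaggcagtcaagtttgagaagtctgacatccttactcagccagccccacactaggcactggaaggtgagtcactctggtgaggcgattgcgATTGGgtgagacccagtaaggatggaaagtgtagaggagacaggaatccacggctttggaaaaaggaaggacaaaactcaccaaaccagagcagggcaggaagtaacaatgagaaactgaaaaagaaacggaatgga
PMAIP1: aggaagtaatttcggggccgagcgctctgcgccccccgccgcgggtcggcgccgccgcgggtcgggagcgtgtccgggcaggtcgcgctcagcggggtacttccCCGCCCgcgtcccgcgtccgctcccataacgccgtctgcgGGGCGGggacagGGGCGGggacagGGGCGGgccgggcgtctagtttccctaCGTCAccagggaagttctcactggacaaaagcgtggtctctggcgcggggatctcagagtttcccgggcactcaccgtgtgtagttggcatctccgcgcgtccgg
The motifs were a GC box (GGGCGG, present in 44.95% of all 35116 windows), an E-box (CACGTG, 7.26%), a cyclic AMP response half-site (TGACG, 24.55%), a CCAAT box (CCAAT, 34.61%), a TATA box (TATAAA, 11.53%), a forkhead core (GTAAACA, 3.42%) and a C/EBP-ATF element (TGATGCAA, 0.87%). The half-site and the E-box can share bases, as they do once in the window of BAX. The BMF window held 2 GC boxes, 1 half-site and 1 CCAAT box, at a GC content of 65.0% against a median of 58.7% over all windows. In the window of BBC3, which was poorer in GC at 48.0%, there were 1 E-box and 1 CCAAT box. PMAIP1 had 4 GC boxes and 1 half-site at a GC content of 71.3%. The forkhead core was found in 1 member, BCL2L11, a classical FOXO target. The other start of BMF (chr15:40106917-40107216) held none of the 7 motifs. A match describes letters in a window and not a bound site. MCL1 was not matched in the promoter table.

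BMF, whose protein is held on the actin-bound myosin V motor through a dynein light chain and is freed by loss of attachment, stood at 2.56, 1.04 and 2.04 TPM in control replicates 1 to 3. In ACSS2 shRNA replicates 1 to 3 it stood at 18.37, 7.59 and 7.56 TPM. All 3 ACSS2 shRNA libraries lay above all 3 control libraries, and replicate 1 was the highest of its group in both. CPM are counts scaled by library size and the TMM factors of the fit, and not by transcript length. On this scale the mean of BMF was 5.04 ± 2.26 in control and 27.4 ± 14.7 in ACSS2 shRNA libraries (SD, n = 3). The log2 differences within pairs 1 to 3 were 2.64, 2.75 and 1.83, and the paired estimate was 2.43 (SE 0.19), a 5.39-fold higher level with a 95% interval of 4.08 to 7.11. Without the pairing the estimate was 2.44 with a wider interval, 1.37 to 3.52. The unpaired estimate fell to 1.89 when ACSS2 shRNA replicate 1 was left out. An antisense gene, BMF-AS1, overlaps exons of BMF, and its reads cannot be told apart from those of BMF if the libraries were not stranded, which the sources used here do not state.

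BBC3 encodes PUMA, a BH3-only protein that binds every pro-survival member and is induced by FOXO factors and by endoplasmic reticulum stress. It was at 9.36, 8.72 and 14.81 TPM in control replicates 1 to 3 and at 23.47, 22.97 and 29.98 TPM in ACSS2 shRNA replicates 1 to 3. The lowest ACSS2 shRNA library was above the highest control library, and replicate 3 was the highest in both groups. Within pairs the log2 differences were 1.11, 1.33 and 0.99. In the paired fit BBC3 rose by 1.15 on the log2 scale (SE 0.14, adjusted p = 0.00019), which is 2.22-fold with a 95% interval of 1.8 to 2.73. The unpaired fit gave almost the same size, 1.13, with a larger standard error (SE 0.28, adjusted p = 0.139).

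PMAIP1 encodes NOXA, a BH3-only protein that binds MCL1 and promotes its degradation. Here it was at 33.52, 62.75 and 40.90 TPM in control replicates 1 to 3, and at 29.81, 40.54 and 26.56 TPM in ACSS2 shRNA replicates 1 to 3. Replicate 2 was the highest in both groups, and the groups overlapped, with ACSS2 shRNA replicate 2 near control replicate 3. Within each pair the ACSS2 shRNA library was lower, by log2 differences of -0.36, -0.71 and -0.67. PMAIP1 fell by 0.58 on the log2 scale in the paired fit (SE 0.12, adjusted p = 0.00452), a level 1.49-fold lower, opposite in direction to BMF and BBC3. Without the pairing the log2 fold change was -0.60 (SE 0.24, adjusted p = 0.328). The paired call was lost when log2(TPM + 0.1) values were tested with limma in place of counts (log2 fold change -0.47, adjusted p = 0.0804).

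The other BH3-only members, BCL2L11 and BID, did not pass the test in either fit. BCL2L11, which encodes BIM, was at 4.03, 4.96 and 4.55 TPM in control and at 7.62, 4.53 and 6.10 TPM in ACSS2 shRNA replicates 1 to 3. Its groups overlapped through replicate 2, and the paired log2 fold change was 0.43 (SE 0.18, 95% interval 0.04 to 0.81, adjusted p = 0.0943). BID encodes the protein that caspase 8 cleaves to carry a death-receptor signal to the mitochondrion. BID stood at 50.76, 39.24 and 46.44 TPM in control and at 58.52, 55.86 and 48.45 TPM in ACSS2 shRNA replicates 1 to 3. On CPM its groups overlapped, with pair differences of 0.02, 0.43 and 0.01, and the paired log2 fold change was 0.15 (95% interval -0.11 to 0.42, adjusted p = 0.382). Outside the members, BAD did not pass (paired log2 fold change 0.07, adjusted p = 0.672), and HRK had too few counts to be tested. BIK was low, at 0.817 ± 0.241 TPM in control and 1.94 ± 1.14 TPM in ACSS2 shRNA libraries. Its groups did not overlap on CPM, but it did not pass (1.09, 95% interval 0.05 to 2.13, adjusted p = 0.116).

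Among the pro-survival members, MCL1 was higher in the ACSS2 shRNA libraries, while BCL2L1 and BCL2 passed the test in neither fit. MCL1 encodes a short-lived protein that binds BIM, PUMA, NOXA and BAK. It lies on chromosome 1 (1q21.2, minus strand). MCL1 was at 153.74, 140.01 and 164.81 TPM in control replicates 1 to 3. In ACSS2 shRNA replicates 1 to 3 it was at 259.38, 261.87 and 256.79 TPM. The ACSS2 shRNA libraries lay close together, with a coefficient of variation of 0.979% against 8.13% in control, and above all control libraries. On the CPM scale of the fold change they spread more, at 563 ± 27.4 CPM against 358 ± 43.6 CPM in control (SD, n = 3). The paired log2 fold change was 0.66 (SE 0.12, adjusted p = 0.00221), which is 1.58-fold with a 95% interval of 1.32 to 1.89. Without the pairing it was 0.65 (SE 0.16, adjusted p = 0.139). Leaving out pair 2, in which the difference was largest, lowered the paired estimate to 0.54 and ended the call (adjusted p = 0.0698). The exons of ADAMTSL4-AS1 overlap those of MCL1 on the same strand in GENCODE 29, and the table has no separate row for it.

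BCL2L1 showed the widest spread of the abundant members within a group. It was at 310.82, 380.63 and 602.06 TPM in control replicates 1 to 3, and at 364.61, 433.98 and 471.69 TPM in ACSS2 shRNA replicates 1 to 3. The libraries were ordered by replicate number in the same way in both groups, with replicate 1 lowest and replicate 3 highest, and the groups overlapped throughout. Its paired log2 fold change was -0.09 (95% interval -0.38 to 0.20, adjusted p = 0.669), and the sign of that estimate turned without pair 3 and with TPM in place of counts. The gene gives a long, pro-survival and a short, pro-apoptotic splice form. The table sums its 18 transcripts, so the forms are not resolved. BCL2 was low in all libraries, at 3.46, 3.13 and 2.41 TPM in control and at 2.57, 1.88 and 2.21 TPM in ACSS2 shRNA replicates 1 to 3. Each pair had less BCL2 mRNA under ACSS2 shRNA, and the paired log2 fold change of BCL2 was -0.45 (SE 0.19, 95% interval -0.86 to -0.04, adjusted p = 0.101).

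Neither effector member, BAX or BAK1, passed the test in either fit. BAX was at 143.85, 129.21 and 132.71 TPM in control and at 151.48, 134.62 and 138.76 TPM in ACSS2 shRNA replicates 1 to 3. Its pair differences on CPM were -0.13, 0.00 and 0.00, and the paired log2 fold change was -0.04 (95% interval -0.28 to 0.19, adjusted p = 0.813). BAK1 was at 42.74, 28.55 and 31.36 TPM in control and at 39.80, 25.69 and 26.87 TPM in ACSS2 shRNA replicates 1 to 3. Replicate 1 was the highest in both groups. The pair differences of BAK1 lay close together, at -0.30, -0.23 and -0.27. Its paired log2 fold change was -0.27 (SE 0.11, 95% interval -0.51 to -0.02, adjusted p = 0.105). The paired intervals of BAX and BAK1 leave room for changes of up to 1.42-fold, so the tests do not show that their levels were the same. Without the pairing the interval of BAK1 was wider, -0.83 to 0.29 on the log2 scale. BOK, a BAX-like relative outside the members, was at 62.4 ± 11.8 TPM in control and 86.6 ± 11.4 TPM in ACSS2 shRNA libraries. It rose in the paired fit (log2 fold change 0.37, adjusted p = 0.0364) but did not pass unpaired (adjusted p = 0.461).

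**Figure D2:**
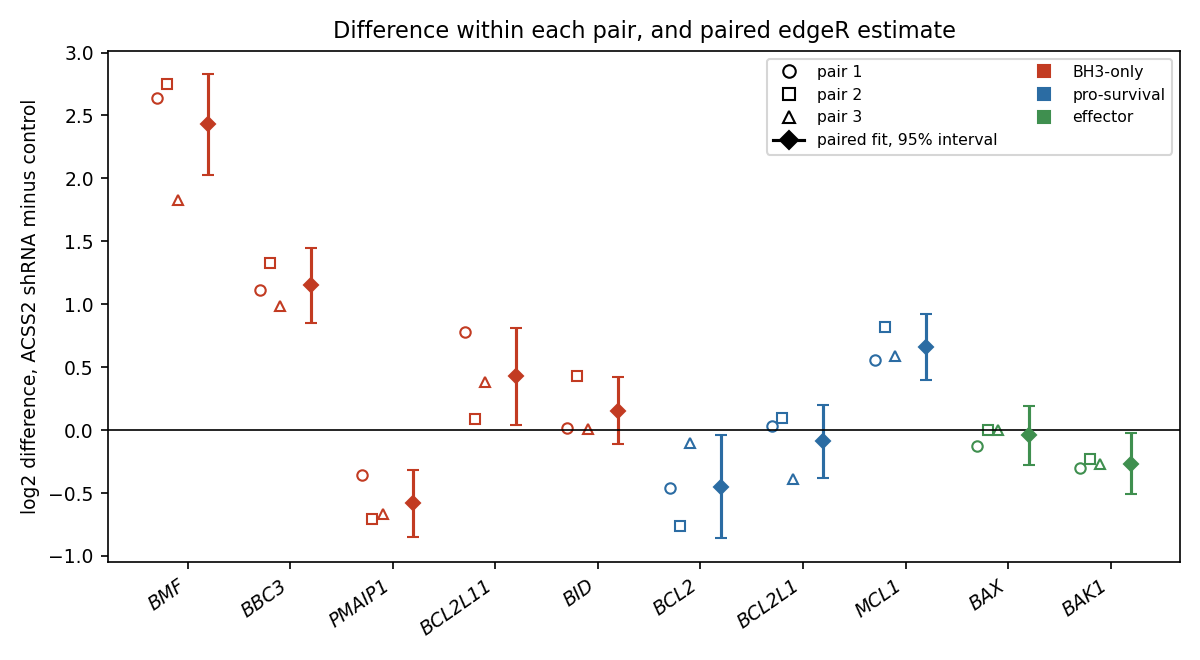
Log2 difference of CPM, ACSS2 shRNA minus control, for the 10 members. Open symbols are the 3 pairs, and filled diamonds with bars are the paired edgeR estimate with its 95% interval. All 3 pairs lie above 0 for BMF, BBC3, MCL1, BCL2L11 and BID and below 0 for PMAIP1, BCL2 and BAK1.

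Of the 9 members other than BMF, none passed the unpaired edgeR test, in which 0.0692% of all 13003 genes were called. At an unadjusted p under 0.05, 3 of the 9 passed it, namely BBC3, PMAIP1 and MCL1, as did 1820 of the 13003 genes. In the paired fit BBC3 and MCL1 were called higher, as were 12.7% of all genes, and PMAIP1 was called lower, as were 12.4% of all genes. Unpaired DESeq2 called BBC3 (log2 fold change 1.10, adjusted p = 0.0172) and MCL1 (0.63, adjusted p = 0.0225) higher, among 1.65% of genes, and called no member lower, against 2.35% of genes. The authors' deposited table gave a log2 fold change of 1.10 with q = 0.0214 for BBC3, 0.62 with q = 0.0427 for MCL1 and -0.62 with q = 0.281 for PMAIP1. By CPM, all 3 ACSS2 shRNA libraries were above all 3 control libraries for BMF, BBC3 and MCL1, a pattern found in 10.7% of genes, and no member had all 3 below, a pattern found in 9.63% of genes. The family was chosen from this comparison, so these counts are printed for scale only. By class, the median paired log2 fold change was 0.43 for the 5 BH3-only members, -0.09 for the 3 pro-survival members and -0.15 for the 2 effector members. The median of all genes was 0.0226. The BH3-only median includes BMF, the gene that led to the choice, so no difference between classes is read from these values.

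Summed over the 5 BH3-only members, mRNA was at 100, 117 and 109 TPM in control replicates 1 to 3. In ACSS2 shRNA replicates 1 to 3 the sum was 138, 131 and 119 TPM. Every ACSS2 shRNA library was above every control library in this sum, but without BMF the sums overlapped, at 107 ± 9.0 and 118 ± 6.5 TPM (SD, n = 3). The BH3-only gene BAD is not in the sum of the 5 members and was alone above it in each library. BAD was at 132 ± 16.9 TPM in control and 148 ± 15.4 TPM in ACSS2 shRNA libraries. Shares below are therefore of the members only. The makeup of their sum differed as well. BMF and BBC3 together went from 12.8 ± 3.63 to 36.6 ± 5.69 TPM, while PMAIP1 went from 41.6 ± 10.7% to 25.0 ± 5.11% of the BH3-only sum. BMF itself, the member with the largest fold difference, made up 1.77 ± 0.836% of that sum in control and 8.49 ± 4.2% in ACSS2 shRNA libraries. The pro-survival sum was at 468, 524 and 769 TPM in control and at 627, 698 and 731 TPM in ACSS2 shRNA replicates 1 to 3, with the groups overlapping because of BCL2L1 in control replicate 3. Within it MCL1 took 32.8, 26.7 and 21.4% in control and 41.4, 37.5 and 35.1% in ACSS2 shRNA replicates 1 to 3, without overlap. The sum of BAX and BAK1 was 169 ± 15.2 TPM in control and 172 ± 16.6 TPM in ACSS2 shRNA libraries.

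The balance of the members was read as mRNA of the 5 BH3-only members in percent of that of the 3 pro-survival members. It was 21.4, 22.3 and 14.1% in control and 22, 18.8 and 16.2% in ACSS2 shRNA replicates 1 to 3. The groups overlapped, with means of 19.3 ± 4.47% and 19 ± 2.88% (SD, n = 3). This balance leaves out BAD and the pro-survival relatives BCL2A1 and BCL2L2, so it is not that of the whole family. BCL2A1 was at 106 ± 58.2 TPM in control and 67 ± 25.8 TPM in ACSS2 shRNA libraries. BCL2L2 was at 14.2 ± 2.09 TPM in control and 18.9 ± 1.17 TPM in ACSS2 shRNA libraries. For the single pair of PMAIP1 and its partner MCL1 the groups were separate. This pair sets a member called lower over a member called higher in the paired fit, so its separation follows from those calls. The paired log2 fold changes of BMF (2.43) and BBC3 (1.15) were larger than that of MCL1 (0.66), so the ratio does not stand for BH3-only genes in general. PMAIP1 mRNA was 21.8, 44.8 and 24.8% of MCL1 mRNA in control and 11.5, 15.5 and 10.3% in ACSS2 shRNA replicates 1 to 3. These sums weigh each mRNA alike and carry no test, since their members were chosen with the comparison known, and mRNA does not give the level or the activity of these proteins.

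**Figure D3:**
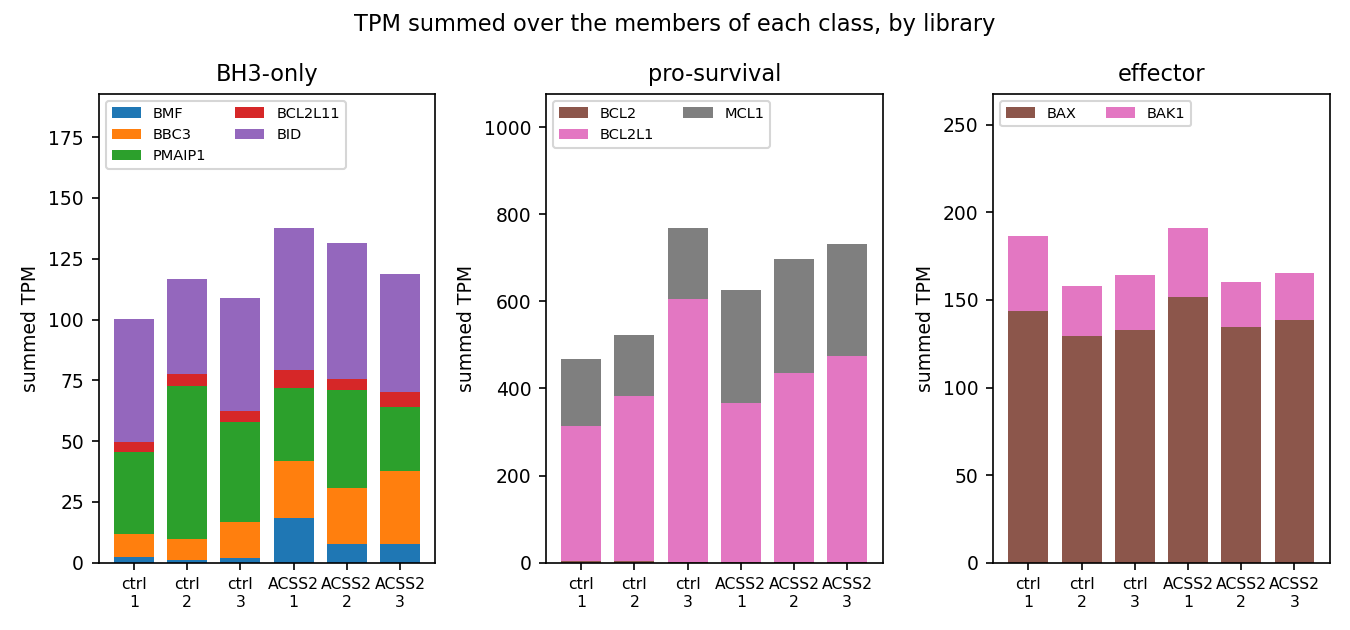
TPM summed over those of the 10 members that are in each class, stacked by gene, in each of the 6 libraries (ctrl, control shRNA). The bars start at 0 and each panel has its own scale. The BH3-only sum is 100 to 117 TPM in control and 119 to 138 TPM in ACSS2 shRNA libraries, and the effector sum overlaps between the groups.

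The replicate number is a contrast that the choice of the family did not use, and it was tested over all genes in the paired fit. It separated 5 of the 10 members at an adjusted p under 0.05, against 38.7% of all genes. BMF differed between numbers (F = 19.6, adjusted p = 0.00154), with replicate 1 highest in both groups. BAK1 (F = 12.2, adjusted p = 0.00653) also had replicate 1 highest in both groups. For BCL2L1 (F = 10.7, adjusted p = 0.00942) and BBC3 (F = 9.89, adjusted p = 0.0116) replicate 3 was the highest in both. PMAIP1 had replicate 2 highest in both groups (F = 9.98, adjusted p = 0.0114). The other 5 members, BCL2L11, BID, BCL2, MCL1 and BAX, did not pass this test, with adjusted p between 0.233 and 0.495. Each of the 5 calls was lost when the number with the highest level was left out. The adjusted p was 0.12 for BMF and 0.177 for BAK1 without replicate 1, and 0.584 for PMAIP1 without replicate 2. It was 0.731 for BBC3 and 0.436 for BCL2L1 without replicate 3. Those numbers were picked by their levels, and these fits rest on 2 pairs. The losses were therefore likely beforehand and do not measure how firm the calls are.

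The wider pathway was read from lists of genes around the family, all in the paired fit. In that fit 12.7% of all genes were called higher and 12.4% lower, and no list was tested against those shares. None of the genes in these lists passed the unpaired edgeR test. Of 10 other BCL2 relatives with enough counts, 3 rose and 2 fell, and 5 did not pass. BCL2L12, an atypical relative, fell from 33.7 ± 8.01 to 19.1 ± 1.17 CPM (log2 fold change -0.79, adjusted p = 0.0016). The pro-survival relative BCL2A1 fell from 50.2 ± 25.9 to 30.2 ± 11.9 CPM with overlapping groups (log2 fold change -0.67, adjusted p = 0.00345). BNIP3, a mitophagy receptor with a BH3-like stretch, rose by 0.43 on the log2 scale (adjusted p = 0.0283), but without pair 2 it did not pass (adjusted p = 0.434). The median of these 10 genes was 0.19.

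At the outer mitochondrial membrane and downstream of its pores, changes went in both directions. This list held 10 genes, of the apoptosome, the released mitochondrial proteins and the VDAC channels of the outer membrane. Of these, 1 rose (12.7% of all genes did), 2 fell (12.4%) and 7 did not pass. DIABLO, whose protein (SMAC) relieves caspases from their inhibitors, fell from 91.2 ± 3.62 to 51.8 ± 9.11 CPM (log2 fold change -0.83, adjusted p = 0.000793). VDAC2, a channel of the outer membrane that holds BAK, fell by 0.36 (adjusted p = 0.0382), and HTRA2, a protease of the intermembrane space, rose by 0.33 (adjusted p = 0.0414). Both of those calls were lost when any 1 pair was left out. Of 6 inhibitors of apoptosis, XIAP rose from 18.2 ± 2.40 to 28.3 ± 1.68 CPM (log2 fold change 0.64, adjusted p = 0.00516). BIRC6 rose by 0.40 (adjusted p = 0.0333) and did not pass without pair 1 or pair 2. BIRC5, better known as the mitotic protein survivin, fell by 0.51 (adjusted p = 0.00831) with overlapping groups.

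On the death-receptor side, 3 of 10 genes rose (12.7% of all genes did), 2 fell (12.4%) and 5 did not pass. FADD, the adaptor between death receptors and caspase 8, fell from 55.0 ± 14.4 to 27.6 ± 5.57 CPM (log2 fold change -0.98, adjusted p = 0.00019). RIPK1, the kinase that takes a TNF signal to survival or death, rose from 24.8 ± 2.96 to 40.2 ± 9.51 CPM (log2 fold change 0.68, adjusted p = 0.00231). The TNF receptor gene TNFRSF1A rose by 0.56 (adjusted p = 0.00825) but did not pass without pair 2 (adjusted p = 0.214).

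Of the 11 transcription factor genes linked to BH3-only genes, 2 rose (12.7% of all genes did), 2 fell (12.4%) and 7 did not pass. DDIT3, which encodes the stress factor CHOP, rose from 23.1 ± 9.41 to 42.7 ± 16.5 CPM with overlapping groups (log2 fold change 0.89, adjusted p = 0.000694). FOXO4 rose by 0.56 (adjusted p = 0.00738), while the other FOXO factor genes of the list did not pass.

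Of 11 FOXO target genes, 5 rose, 1 fell and 5 did not pass, with a median of 0.35. Over all genes, 12.7% were called higher and 12.4% lower in this fit, and no list was tested against the others. PIK3IP1, which encodes a membrane inhibitor of PI3K, was at 4.21, 1.94 and 4.00 CPM in control and at 18.7, 16.8 and 16.3 CPM in ACSS2 shRNA replicates 1 to 3 (paired log2 fold change 2.39, SE 0.21, adjusted p = 2.57e-05). The transcriptional repressor BCL6 rose by 0.76 (adjusted p = 0.000688) with overlapping groups. CDKN1B, the cell cycle inhibitor p27, rose from 24.1 ± 5.54 to 39.7 ± 5.86 CPM (log2 fold change 0.73, adjusted p = 0.00174). Of 12 partners and modifiers of BCL2 family proteins, 2 rose, 1 fell and 9 did not pass. The ubiquitin ligase subunit BTRC rose by 0.69 (adjusted p = 0.0016). FBXW7, whose protein targets MCL1 for degradation, rose by 0.45 (adjusted p = 0.0201) and did not pass without pair 2 or pair 3. Exons of BCL2L12, DIABLO, HTRA2 and DDIT3 overlap those of another listed gene on the opposite strand, so part of their counts may belong to that gene.

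**Figure D4:**
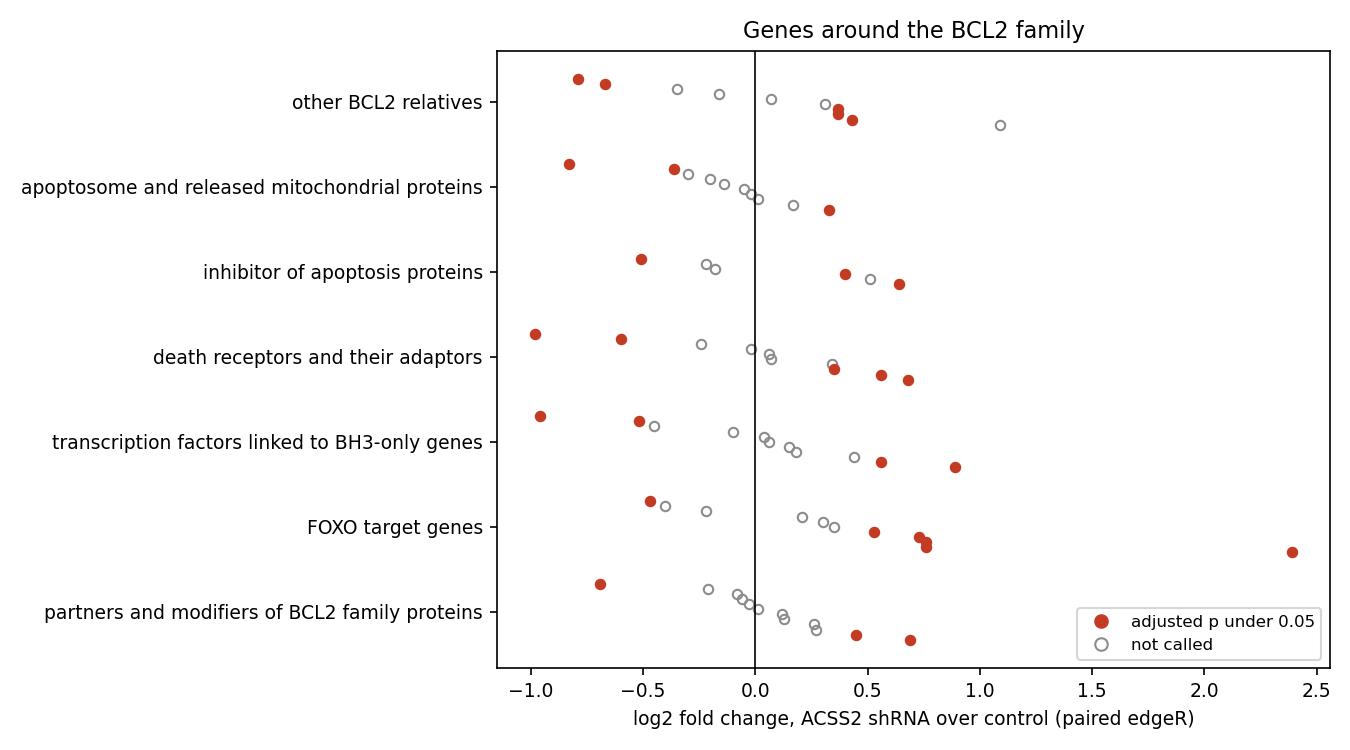
Paired edgeR log2 fold change of the tested genes in 7 lists around the family, 1 point per gene. Filled points passed an adjusted p under 0.05. Both directions appear in each list, and PIK3IP1 stands apart at 2.39.

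Over the 6 libraries, the genes whose centred log2 CPM lay nearest to that of BMF, out of 10694 with a mean of at least 5 CPM, were PIK3IP1 (Euclidean distance 0.90), ABCA1 (1.22), CFB (1.25), PMEPA1 (1.28) and PCDHGA10 (1.43). ABCA1, a cholesterol exporter, was at 12, 5.59 and 7.1 CPM in control and at 44.4, 19 and 15 CPM in ACSS2 shRNA replicates 1 to 3, so that replicate 1 was the highest in both groups, as for BMF. PIK3IP1 also had replicate 1 highest in both groups, by a smaller margin in the ACSS2 shRNA libraries. PCDHGA10 shares exons with the other protocadherin gamma genes, so its counts are uncertain. No other BCL2 family member was among these 5 genes. The distance was taken over the same groups in which BMF was chosen, so it favours genes with a rise of similar size. The next largest paired log2 fold change among the members was 1.15, for BBC3, against 2.43 for BMF, so their absence says little.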

How the data were processed

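Messenger RNA of 6 MDA-MB-231BR libraries was enriched with oligo(dT) and sequenced at BGI, per the labels' protocols. Per the submitters' processing notes, HISAT, Bowtie2 and RSEM were used, with no versions or settings. Neither annotation nor strandedness is given in the sources used here. The authors deposited expected counts and TPM per gene, and the authors' own comparison of the groups, with its log2 fold changes, p-values and q-values. TPM by the authors divide by transcript length and library size. Coordinates in it are on GRCh38, judged from the chromosome accessions. The table holds 17721 genes after 565 lines of spilled text were left out. Symbols that had become dates (26) were restored from gene IDs, and 17479 IDs were found in a RefSeq table. Between 10.47% and 13.01% of expected counts were not whole, and all were rounded.

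Groups were compared in R 4.3.3 by quasi-likelihood F tests (edgeR 4.0.16), after TMM scaling and filterByExpr (minimum count 10, minimum total count 15), on 13003 genes, with Benjamini-Hochberg adjustment over all of them. All adjusted p-values are from edgeR unless another tool is named. The unpaired fit has the group only, and the paired fit adds the replicate number as a block. The labels' batch tag gives the pairing. Log2 CPM values, centred within each group, correlated across genes, which are not independent replicates, by 0.716, 0.494 and 0.74 within numbers, and by at most -0.00998 between numbers, where the centring pulls values below 0. The SE of a log2 fold change is its size divided by the square root of F. Pair differences are on log2 CPM with a prior count of 2. Alternatives were DESeq2 1.42.0, its size factors in edgeR, no low-count filter, limma 3.58.1 on log2(TPM + 1) and log2(TPM + 0.1), and leaving out libraries or pairs. The code was tested on simulated counts.

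The members and gene lists were chosen with earlier results of these data known. The text names all members, ACSS2, up to 3 genes called with the smallest paired p in each list, and the 5 genes nearest to BMF. Some genes and lists that this rule covers are not reported here. Promoter windows are from RefSeq, and matched 9 of 10 members. Exon overlaps are from GENCODE 29.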

Additional observations from a re-analysis of the deposited data

How the results depend on the processing

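The replicate block made the main difference to the number of calls. Unpaired edgeR called 3 genes higher and 6 lower, and with the replicate block it called 1657 and 1608. Unpaired DESeq2 called 214 and 305, the unfiltered test 12 and 27, and limma on log2(TPM + 1) 5 higher and on log2(TPM + 0.1) 0 lower. With 1 library or pair left out, the unpaired counts were 0 to 1 higher and 0 to 5 lower, and the paired counts were 664 to 1555 higher and 917 to 1554 lower, the lowest without replicate 2. Paired limma called 982 lower on log2(TPM + 1) and 626 on log2(TPM + 0.1), against 2082 and 1192 higher, so that 68% and 65.6% of calls were higher against 50.8% in edgeR. The median of all genes was 0.106 on log2(TPM + 1). Replicate numbers separated 5030 genes, and 2922 to 4329 with 1 number left out.

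BMF, BBC3, MCL1, BCL2L11, PMAIP1, BCL2 and BAK1 kept their direction under every alternative run, with paired estimates of 2.00 to 2.72 for BMF, 1.02 to 1.24 for BBC3, 0.54 to 0.77 for MCL1 and -0.70 to -0.46 for PMAIP1. The 3 members nearest 0 changed sign. BCL2L1 was 0.02 on both TPM scales in both fits, and ranged from -0.30 to 0.20 unpaired and -0.22 to 0.07 paired with libraries or pairs left out. BAX was 0.07 on both TPM scales in both fits, and ranged from -0.14 to 0.02 unpaired and -0.10 to -0.01 paired with libraries or pairs left out. With libraries or pairs left out, BID ranged from -0.02 to 0.25 unpaired and -0.02 to 0.23 paired, and over all alternatives it reached 0.26 in both fits. Of the 19 pathway genes named, all of which were called in the paired fit, 19 were not called with no replicate block, 7 not on log2(TPM + 0.1), 1 not on log2(TPM + 1), 2 not by paired DESeq2, and 3 to 6 not with a pair left out. Paired fits with a pair left out rest on 2 pairs. Where 1 library was left out, its group kept 2.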
